A study of Mus musculus with 25 samples.

Results

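The chromatin contacts of 5 genes for mesenchymal transcription factors, Twist1, Prrx1, Snai2, Runx1 and Zeb1, were followed through 9 lists of high-confidence contacts. A contact is a pair of 10 kb bins of the same chromosome. The genes were given by position, in 6 windows. The bin of Twist1 with 1 bin on either side covers chr12:33940001-33970000, that of Prrx1 chr1:163300001-163330000 and that of Snai2 chr16:14690001-14720000. For Runx1 the bin of the proximal start site with its neighbours covers chr16:92680001-92710000 and that of the distal start site chr16:92810001-92840000. For Zeb1 the window is the single bin that the TKO lists name for it, chr18:5590001-5600000. The middle bin of a window is called by the name of its gene or promoter, other bins by their first base. Positions are on mm10 and 1-based. Every pair with an end in a window is a member. There were 141 listings of 93 different pairs, of 493983 different pairs in the 9 lists together.

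The study profiled contacts by HiChIP, which joins DNA ends that are near each other in the nucleus and then pulls down those bound by a chosen protein. The targets were the reprogramming factor KLF4 and acetylated lysine 27 of histone H3 (H3K27ac), found at promoters and enhancers in use. Hi-C omits the pull-down. The 25 libraries formed 9 groups. Reprogrammable mouse embryonic fibroblasts (MEFs) came from E13.5 rtTA3-OKSM embryos heterozygous for an Oct4-GFP reporter, for the OKSM cassette (Oct4, Klf4, Sox2 and Myc) and for the doxycycline-dependent activator rtTA3. They were taken at passage 3 for H3K27ac HiChIP (2 libraries) and Hi-C (2), or after 3 days (3) or 6 days (4) in doxycycline and ascorbic acid for KLF4 HiChIP. Day 3 cells were a bulk population and day 6 cells were sorted for the surface marker SSEA1, so day and sorting cannot be told apart. V6.5 embryonic stem (ES) cells in 2i medium gave H3K27ac HiChIP (2), KLF4 HiChIP (4) and Hi-C (2). Cells labelled TKO, a name the labels do not expand, were V6.5 cells in 2i without doxycycline (0 h, 3 libraries) or with it for 24 h (3), profiled for H3K27ac. KLF4 in day 3 and day 6 cells can include that made from the cassette.

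These factors hold cells in a mesenchymal state. Twist1 is a basic helix-loop-helix factor of mesoderm and neural crest, Prrx1 a homeobox factor of limb and connective tissue mesenchyme, and Snai2 and Zeb1 are zinc finger repressors that bind E-boxes and shut off epithelial genes such as Cdh1. Runx1, a runt-domain factor best known from blood formation and also active in fibroblasts, is transcribed from a distal and a proximal promoter. Reprogramming of fibroblasts begins with loss of mesenchymal and gain of epithelial expression.

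Promoter sequences of Twist1 and of both Runx1 start sites are shown, from RefSeq (GRCm38.p6, the assembly that mm10 names), because the results turn on the contrast of the proximal and distal Runx1 promoters and on Twist1 pairs listed with KLF4 alone. Each is the stretch of 250 bases before the start site, 5′ to 3′ on the strand of the gene. The Twist1 stretch lies at chr12:33957421-33957670 on the plus strand, the proximal Runx1 stretch at chr16:92697330-92697579 and the distal Runx1 stretch at chr16:92826075-92826324, both on the minus strand. Capitals mark GGGTG, the core of the CACCC box that KLF proteins bind, in the proximal Runx1 stretch and the E-box CAGGTG of SNAI and ZEB proteins in the distal one.
Twist1: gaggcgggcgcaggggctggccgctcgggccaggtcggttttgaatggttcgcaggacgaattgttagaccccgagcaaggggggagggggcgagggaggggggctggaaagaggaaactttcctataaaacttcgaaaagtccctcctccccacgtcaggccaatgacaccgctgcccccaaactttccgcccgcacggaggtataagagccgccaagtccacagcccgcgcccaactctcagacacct
Runx1 proximal: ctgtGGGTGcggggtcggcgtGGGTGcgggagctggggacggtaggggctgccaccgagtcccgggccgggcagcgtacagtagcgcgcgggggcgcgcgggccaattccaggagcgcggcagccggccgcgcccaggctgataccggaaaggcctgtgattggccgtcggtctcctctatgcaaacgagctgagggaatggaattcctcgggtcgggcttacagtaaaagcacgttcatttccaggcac
Runx1 distal: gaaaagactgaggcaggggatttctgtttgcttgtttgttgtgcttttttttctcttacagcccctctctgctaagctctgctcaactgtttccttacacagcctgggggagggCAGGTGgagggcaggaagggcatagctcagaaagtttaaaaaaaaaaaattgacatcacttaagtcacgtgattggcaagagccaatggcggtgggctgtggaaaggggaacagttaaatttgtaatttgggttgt

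The proximal Runx1 stretch is 67.6% G and C with 27 CpG, and the Twist1 stretch 62.4% with 18 CpG. The distal Runx1 stretch has 45.6% and 2 CpG, against medians of 52.4% and 6 CpG over 32619 RefSeq promoters. On both strands, GGGTG occurred at 2 places in the proximal Runx1 stretch and in 52.1% of all stretches of this length. That motif was chosen after the sequences had been seen; the longer KLF motif GGGNGTGG was in 0 of the 4 member promoters searched (Twist1, Prrx1 and both of Runx1) and in 16% of all. CAGGTG was found at 1 place, in the distal Runx1 stretch, and in 17.3% of all. The TWIST E-box CATATG was in 0 of the 4, also in the 300 bases that include the first 50 after the start, where 3.82% of promoters hold it. The RUNX motif TGTGGTT occurred at 2 places just after the distal Runx1 start and in 5.29% of promoters of 300 bases. Those 2 copies, in capitals and read here from the complementary strand as AACCACA, lie at chr16:92826028-92826052 on the minus strand.
Runx1 distal, after the start: taaacAACCACAgAACCACAagttg

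The 6 windows together held 47 pairs of the 60870 in the MEF H3K27ac list and 25 of the 23720 in the day 3 KLF4 list. They held 2 of 75466 in ES H3K27ac, 2 of 24589 in ES KLF4, 1 of 4047 at day 6, and 1 each in TKO at 0 h (of 93248) and 24 h (of 84256). Hi-C gave 41 of 228083 pairs in MEF and 21 of 318622 in ES. The proximal Runx1 window was the only one with pairs in 8 lists, and Twist1 had pairs in 1. A 0 here means no listed pair, not no contact, because pairs under a list's filters were left out whatever their value.

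**Figure D1:**
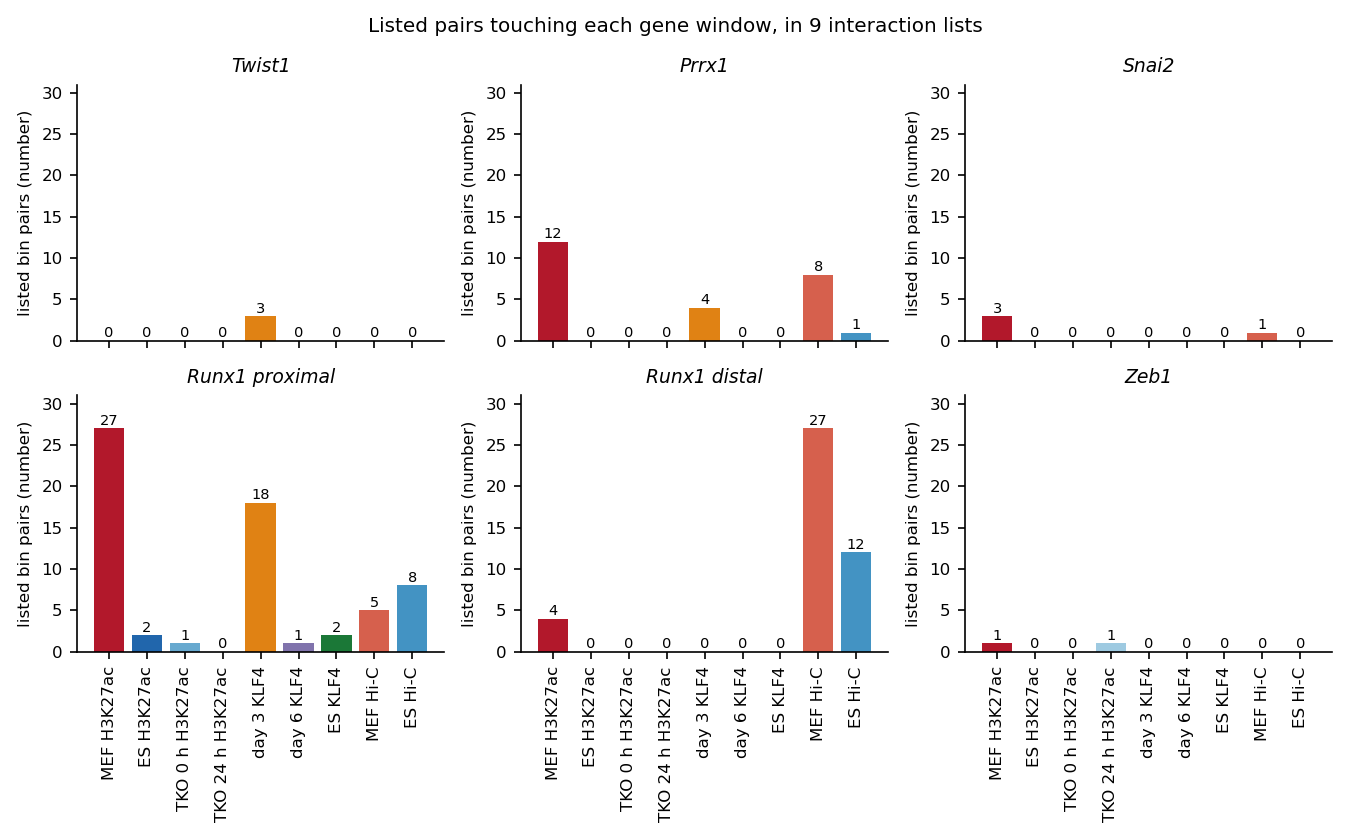
Number of listed bin pairs (vertical axis) that touch each of the 6 windows in each of the 9 lists (bars). MEF H3K27ac and day 3 KLF4 hold most HiChIP pairs of the Prrx1 and proximal Runx1 windows (12 and 4, 27 and 18), whereas the distal Runx1 window has 27 and 12 pairs in the 2 Hi-C lists and 4 in MEF H3K27ac.

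Such counts were read against the same 3-bin windows around all RefSeq promoters, 25153 of them. At least 1 pair was listed at 42.2% of these in MEF H3K27ac, 43% in ES H3K27ac, 48.6% in TKO at 0 h, 47.3% in TKO at 24 h, 29.3% at day 3, 10.1% at day 6, 35.3% in ES KLF4, 76% in MEF Hi-C and 76.2% in ES Hi-C. With Zeb1 also taken as 3 bins here, 5 of the 6 member windows had a pair in MEF H3K27ac and 1 in ES H3K27ac, with 3 at day 3, 1 in ES KLF4, 5 in MEF Hi-C and 4 in ES Hi-C. The part of depth in these counts was not tested. The MEF H3K27ac libraries held 75.0 and 105 M contacts and those of ES 166 and 168 M. For KLF4 the day 3 libraries held 54.4, 136 and 181 M contacts, those of day 6 48.7 to 129 M and those of ES 51.9 to 102 M. Single listed pairs rested on few contacts, with medians of 11 to 47 counts per library and list.

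Strength is given as the authors' CPM, the count scaled to contacts of the same chromosome, and as their ratio of observed to expected contacts at that distance. For Hi-C the column of that name is a scaled signal and is not comparable with HiChIP. Replicate libraries whose counts agreed within sampling noise were counted as 1 where another pair of their group differed, which left n = 2 for ES KLF4 and for TKO at 24 h. At day 6 all 4 libraries agreed within sampling noise and were kept as 4, so their spread is no larger than counting noise. The labels call replicates no more than that, so p-values measure the spread between these libraries, which may be technical.

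Twist1 (chr12:33957671-33959831, plus strand) had 3 pairs, all of them at day 3 with KLF4. They join the bin of the start site, the bin before it and the bin at 33930001, which holds the predicted gene Gm40383. The pair 33930001 with 33940001 had 6.94, 5.92 and 7.65 CPM in the 3 libraries, on 17, 36 and 62 counts. The pair 33940001 with the Twist1 bin had 7.75, 7.39 and 4.81 CPM, and the pair 33930001 with the Twist1 bin had 4.08, 5.59 and 4.69 CPM. All spanned 10 or 20 kb with ratios of 1.91 to 2.02, and the deposited p-values of 0.0635 to 0.0919 lay near the filter of 0.1. Of all promoter windows, 3157 (12.6%) had 3 or more pairs in that list. The domain lists cut the locus differently: the Twist1 bin was the last of a MEF domain of 520 kb, whereas its ES domain ran on to 34640000, 1200 kb in all, and took in part of Hdac9, a histone deacetylase gene.

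Prrx1 (chr1:163245119-163315145, minus strand) had 12 pairs in MEF H3K27ac, 4 at day 3 with KLF4, 8 in MEF Hi-C, 1 in ES Hi-C and 0 in the other 5 lists. The strongest pair in MEF H3K27ac joined 163290001 and 163300001 inside the gene, at 7.64 and 8.16 CPM. The Prrx1 bin with 163380001, where Gorab lies, had 5.37 and 7.93 CPM and a ratio of 15.1 ± 4.04 (SD, n = 2). The next bin downstream, 163300001, paired with the Prrx1 bin at 4.72 and 7.93 CPM. The widest pair reached 250 kb upstream to 163560001 (Gm32333), at 3.41 ± 0.452 CPM (SD, n = 2) and a ratio of 23.0 ± 3.08. MEF replicate 2 was the higher at each of these pairs. Of all promoter windows 1111 (4.42%) had 12 or more pairs in MEF H3K27ac, and 271 of those had 0 in ES H3K27ac, as Prrx1 did.

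All 4 Prrx1 pairs of day 3 KLF4 were also in MEF H3K27ac. The pair 163300001 with the Prrx1 bin had 6.92, 7.19 and 4.48 CPM at day 3, the pair 163290001 with 163300001 had 4.46, 6.02 and 4.48, and the Prrx1 bin with 163320001 had 5.80, 3.42 and 4.35. The fourth, the Prrx1 bin with 163360001, 50 kb upstream, had 4.24, 3.60 and 2.68 CPM. This last pair was the only Prrx1 pair in 3 lists, with 3.90 and 6.18 CPM in MEF H3K27ac and a signal of 29.3 and 19.8 in MEF Hi-C.

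The Hi-C pairs of Prrx1 in MEF lay upstream of the start, on partners from 163330001 to 163380001, and 3 of the 8 were in MEF H3K27ac too (partners at 163350001, 163360001 and 163380001 of the Prrx1 bin). The strongest came from 163320001, the last bin of the window, with 163330001 at 44.0 ± 4.47 (SD, n = 2), with 163340001 at 35.2 ± 6.06 and with 163350001 at 30.7 ± 0.241. The widest, 70 kb to the Gorab bin, had a signal of 20.1 ± 3.97. The single ES Hi-C pair, the Prrx1 bin with 163330001, had signals of 32.8 and 45.3. Domains around Prrx1 were alike, 880 kb in MEF and 840 kb in ES.

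Snai2 (chr16:14705852-14709395) had few pairs and wide ones. In MEF H3K27ac its bin met 15080001 (Gm46561) at 380 kb with 5.29 and 5.21 CPM, 15250001 at 550 kb with 4.63 and 8.06 CPM, and 15290001 at 590 kb with 3.97 and 8.29 CPM. The ratios were 25.8 ± 0.253, 47.9 ± 19.2 and 51.1 ± 26.1 (SD, n = 2), on 12 to 35 counts per library. Of that list, 0.402%, 0.149% and 0.115% of pairs spanned as much or more. MEF Hi-C listed 1 Snai2 pair, and it was the same one, with 15250001. It had signals of 21.5 and 19.6 on 16 and 15 counts, and a ratio of 16.5 ± 0.932. RefSeq places no gene in the bins at 15250001 and 15290001. The other 7 lists held 0 pairs of the Snai2 window.

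The authors' FDR was under 0.1 in 8 of the 141 listings, 4 of the 47 in MEF H3K27ac and 4 of the 41 in MEF Hi-C. In all 8 the deposited FDR is the p-value multiplied by the same factor, in HiChIP and Hi-C alike. The column of that name therefore reads as a scaled p-value and not as an expected share of false calls. Over the whole lists that share was 1.84% in MEF H3K27ac, 5.9% in ES H3K27ac, 7.74% in TKO at 0 h, 5.83% in TKO at 24 h, 0.535% at day 3, 0.173% at day 6, 0.199% in ES KLF4, 12.6% in MEF Hi-C and 8.8% in ES Hi-C. Of the 4 Snai2 listings 3 were under 0.1: 0.000246 and 0.000122 in MEF H3K27ac for 15250001 and 15290001, and 1.09e-12 in MEF Hi-C. The domain lists differed here as well. The MEF domain ran from 14680001 to 15840000 (1160 kb) and held all 3 partners, whereas the ES domain ended at 15120000 (440 kb), short of the partners at 15250001 and 15290001.

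**Figure D2:**
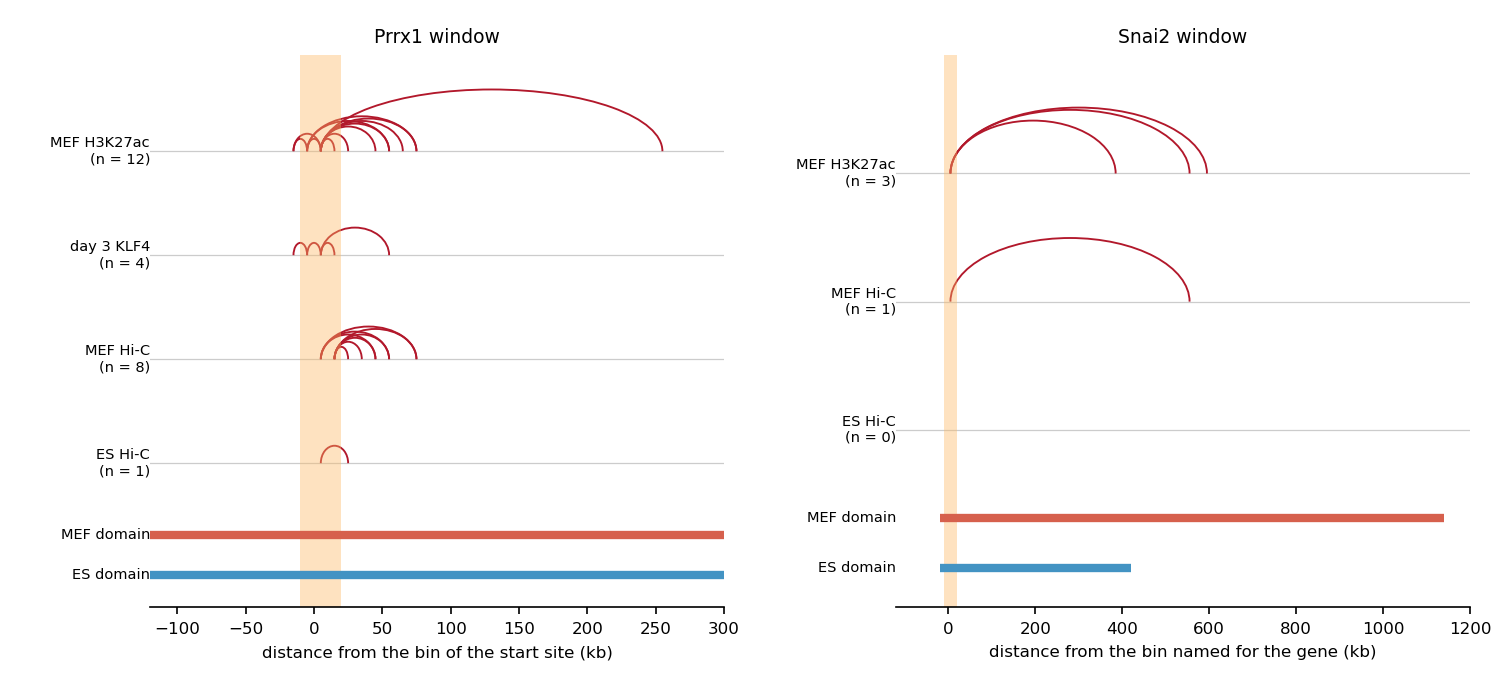
Listed pairs of the Prrx1 window (left) and the Snai2 window (right) as arcs between bin centres, in kb from the named bin, by list, with the window shaded and the domain called in MEF and ES as bars (both run past the plotted range at Prrx1). The widest Prrx1 pair spans 250 kb, and at Snai2 the ES domain ends before the partners 550 and 590 kb away.

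Runx1 (chr16:92601466-92826074, minus strand) has start sites at 92826074 (distal) and 92697329 (proximal). The proximal window held 27 pairs in MEF H3K27ac and 18 at day 3 with KLF4, against 2 each in ES H3K27ac and ES KLF4, 1 in TKO at 0 h, 0 in TKO at 24 h and 1 at day 6. Only 103 of the promoter windows (0.409%) had 27 or more pairs in MEF H3K27ac. Of these, 37 had 2 or fewer in ES H3K27ac, where proximal Runx1 had 2, and 31 had 0. At day 3, 45 windows (0.179%) had 18 or more pairs. In Hi-C the window was ordinary, with 5 pairs in MEF and 8 in ES, where the medians over all windows were 5 and 8.

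The places of the partners of the proximal window were counted in each list. In MEF H3K27ac, 9 of the 27 lay downstream within the gene, 6 past its 3′ end, 1 between the promoters, 1 inside the window and 10 upstream of the distal window. At day 3, 13 of the 18 lay downstream within the gene, 3 past its end, 1 between the promoters, 1 inside the window and 0 upstream of the distal window. None of the 9 lists held a pair that joined the 2 Runx1 windows (0 pairs). That the upstream partners differ between the lists was not tested, since each list is 1 value per group and the antibodies differ.

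The 10 upstream partners all paired with the bin of the proximal start itself, and these pairs were listed in no other group. Some of the partner bins had other listed pairs. The distal window met 92870001 in both Hi-C lists and 92900001 in ES Hi-C, and 93010001 was in pairs of both TKO lists. The 10 partners lay 50 to 630 kb beyond the distal bin, at 3.31 to 5.97 CPM and ratios of 9.21 to 43.5, on 10 to 35 counts per library. RefSeq places no gene in 8 of these bins, and the others hold Gm30474 and 1700029J03Rik. The widest, 760 kb to 93450001, had 3.31 and 3.32 CPM and a ratio of 38.5 ± 0.392 (SD, n = 2). The pairs with 93100001 and 93290001, named because their FDR was 0.0833 and 0.0072, had 3.64 and 8.29 CPM and 5.95 and 4.50 CPM. All 10 lay inside the MEF domain, which ended at 93600000, and inside the larger ES domain, which ended at 94800000.

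**Figure D3:**
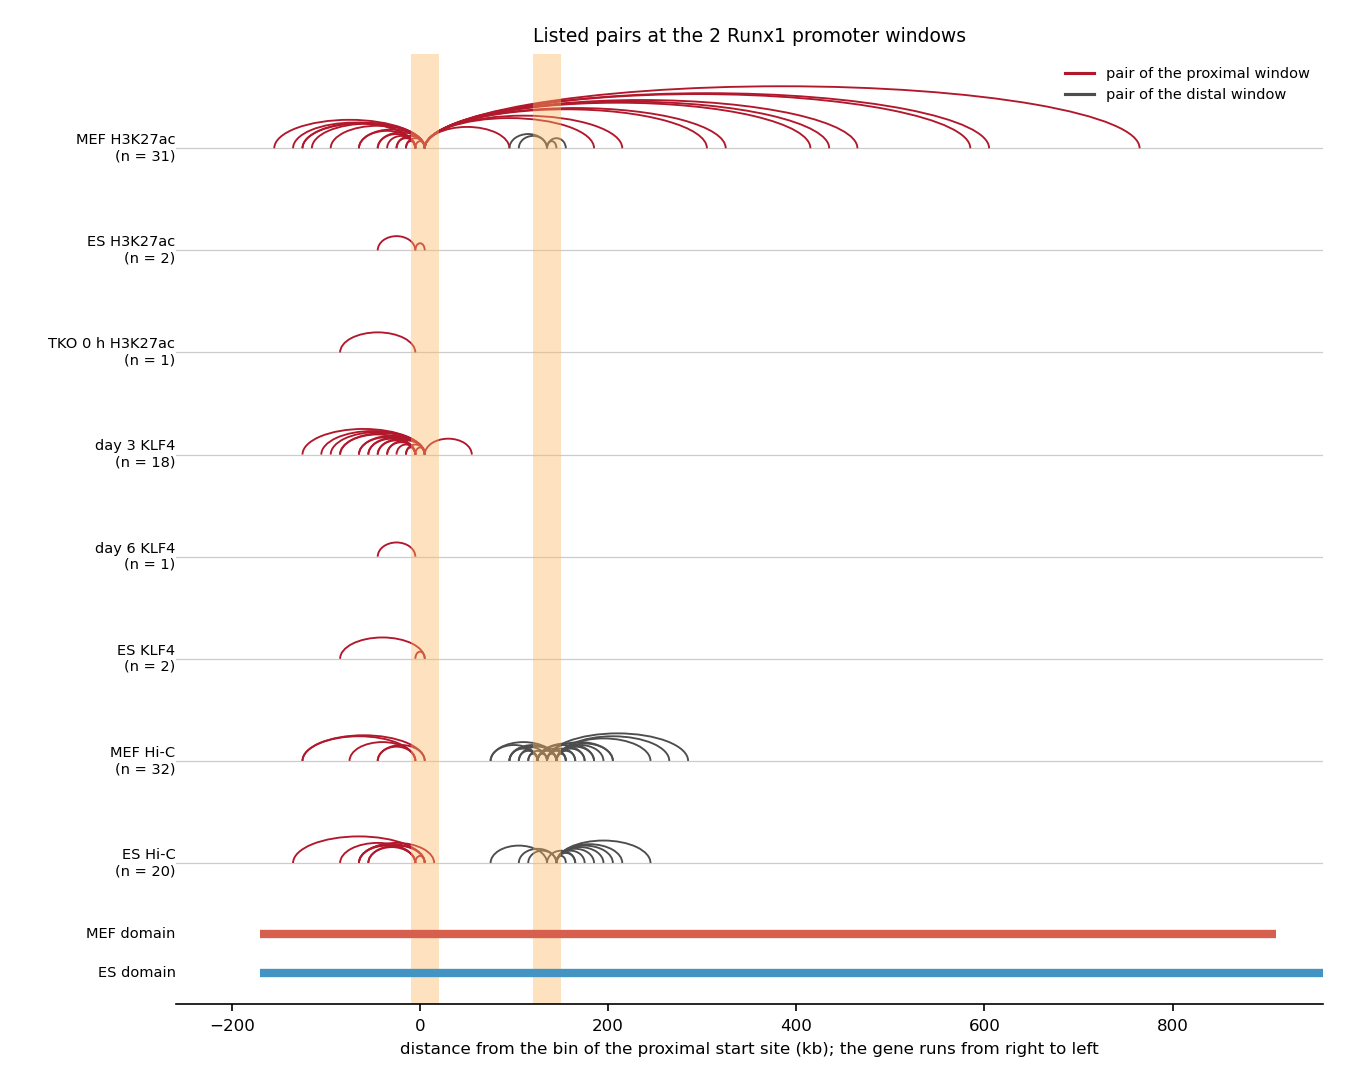
Listed pairs of the proximal (red) and distal (grey) Runx1 windows, shaded, as arcs between bin centres in kb from the bin of the proximal start, by list, with the MEF and ES domains as bars (the ES domain runs past the right edge). Arcs to the right beyond the distal window leave the proximal window in MEF H3K27ac only, 10 in number, and no arc joins the shaded windows.

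The strongest proximal pair joined the proximal bin to the neighbouring 92680001, just downstream of the start, and was in 5 lists. It had 13.9 and 15.9 CPM in MEF H3K27ac, 7.74 and 9.63 in ES H3K27ac, 20.3, 21.1 and 14.9 at day 3, and 17.4, 12.2, 12 and 16.8 in the 4 ES KLF4 libraries. The MEF and ES H3K27ac libraries did not overlap, whereas day 3 and ES KLF4 did. At day 3 it stood at the percentile of 99.9 among listed pairs of chromosome 16. ES Hi-C listed it too, with signals of 41.6 and 52.0.

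Beside it in MEF H3K27ac, 92670001 with 92680001 had 9.26 and 13.7 CPM and 92620001 with 92680001 had 6.94 and 11.6 CPM, all inside the gene. Their day 3 KLF4 values were 8.12, 9.61 and 8.27 CPM for the former and 4.51, 4.44 and 6.48 for the latter. The latter pair and 92620001 with the proximal bin were each in MEF H3K27ac, day 3 KLF4 and ES Hi-C. The latter of these had 8.60 and 7.82 CPM in MEF H3K27ac and 4.51, 6.84 and 4.41 at day 3. Signals in ES Hi-C were 20.2 ± 0.874 and 20.7 ± 1.61 (SD, n = 2) for the 2 pairs.

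The pair 92640001 with 92680001, 40 kb apart and also in 5 lists, was the 1 member listed at day 6. It had 3.64 and 5.92 CPM in MEF H3K27ac, 3.71 and 3.53 in ES H3K27ac, 9.03, 9.61 and 5.51 at day 3 and 3.74, 5.46, 1.98 and 1.80 at day 6. All 3 day 3 libraries were above all 4 of day 6, the lowest of day 3 by little, and the H3K27ac groups overlapped. MEF Hi-C listed it with signals of 36.3 and 19.6. The pair 92640001 with the proximal bin had 3.31 and 3.32 CPM in MEF H3K27ac, 6.32, 4.80 and 3.45 at day 3, and signals of 17.5 and 21.0 in MEF Hi-C.

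Of pairs reaching past the 3′ end of Runx1, 92560001 with the proximal bin (130 kb, the widest at day 3) was in 3 lists. It had 4.63 and 6.40 CPM in MEF H3K27ac, 4.96, 5.91 and 4.41 at day 3, and signals of 16.2 and 15.7 in MEF Hi-C. MEF Hi-C also held 92560001 with 92680001 (17.5 and 15.7) and 92610001 with 92680001 (24.2 and 15.7). In ES Hi-C the strongest pair after the one with the next bin was 92630001 with 92680001 at 27.2 ± 4.70 (SD, n = 2), and the widest, 140 kb to 92550001, had 18.5 ± 0.268.

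The few proximal pairs of ES-type HiChIP lists all lay within the gene: 2 in ES H3K27ac, 2 in ES KLF4 and 1 in TKO at 0 h. So few pairs cannot show where the window makes contacts in these cells, and ES Hi-C listed 1 partner past the gene's end. TKO at 0 h listed 92600001 with 92680001, at 3.54, 3.32 and 5.13 CPM, a pair that day 3 KLF4 (4.06, 3.14 and 4.27 CPM) and ES Hi-C (17.1 and 15.6) listed too. ES KLF4 listed 92600001 with the proximal bin at 3.91, 5.08, 2.73 and 1.53 CPM, which day 3 had at 5.42, 3.88 and 4.69. In the authors' annotation of the TKO lists, 92600001 carried an H3K27ac peak at 0 h and 92680001 none.

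**Figure D4:**
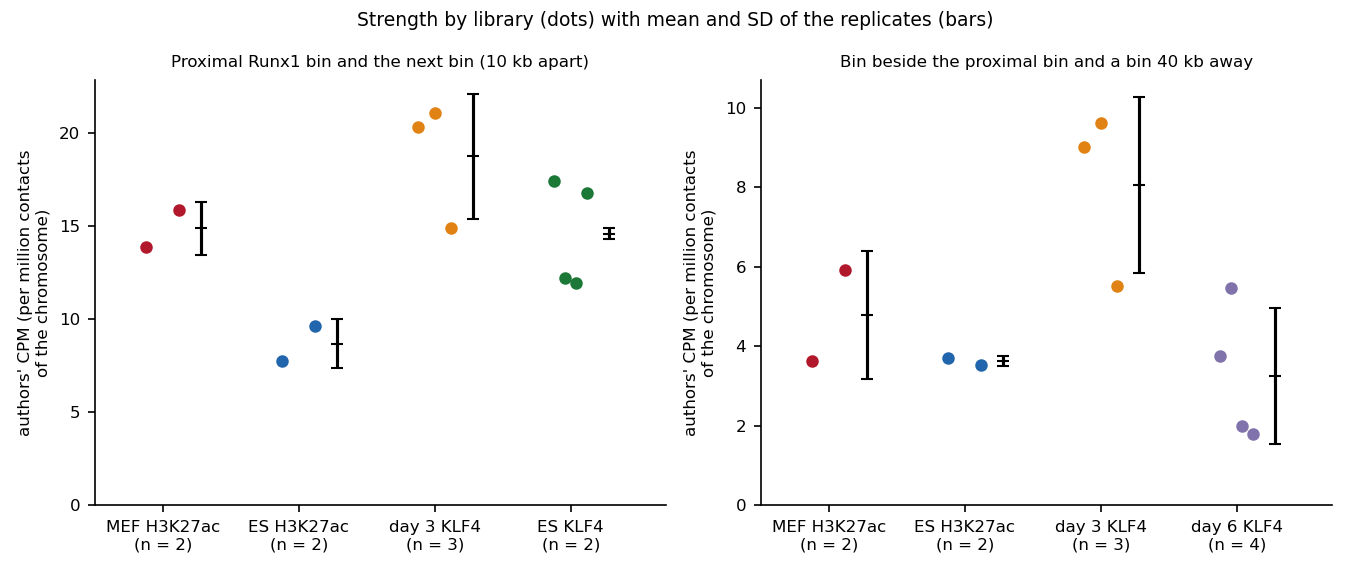
Authors' CPM (vertical axis, from 0) of the pair 10 kb apart and of the pair 40 kb apart at the proximal Runx1 window in each HiChIP library that lists it (dots), with mean and SD over n replicates (bars; in ES KLF4 libraries 1 and 2, and 3 and 4, are averaged first). For the 10 kb pair the MEF libraries (13.9 and 15.9) lie above the ES ones (7.74 and 9.63), and for the 40 kb pair day 3 (5.51 to 9.61) lies above day 6 (1.80 to 5.46).

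Pairs that both lists of a comparison hold were tested on their counts by edgeR (quasi-likelihood), and p-values were adjusted over all shared pairs (Benjamini-Hochberg). The SE given with edgeR is the size of the log2 difference divided by the square root of the quasi-likelihood F. It was calculated back from the test and need not correspond to the p-value. Between MEF and ES H3K27ac, 2 member pairs could be tested and both were lower in ES, where 32% of all 17901 shared pairs passed in either direction. For the pair of neighbouring bins edgeR gave a log2 difference (ES minus MEF) of -1.15 (SE 0.20, adjusted p = 5.64e-06), and it passed in all 9 alternatives run (-1.29 to -0.90). For 92640001 with 92680001 it gave -0.82 (SE 0.27, adjusted p = 0.0405). That call was lost with contact totals in place of TMM scaling (-0.57), and without MEF replicate 2 (-0.43), ES replicate 1 (-0.88) or ES replicate 2 (-0.76). DESeq2 gave -0.78 but no adjusted p for this pair, so it made no call. The edgeR adjusted p ran from 0.029 to 0.627 over the alternatives.

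Between day 3 and ES KLF4, 0 of 2 member pairs passed, beside 7.2% of 7387. The log2 difference (ES minus day 3) was -0.37 (SE 0.21, edgeR adjusted p = 0.299) for the neighbouring bins and -0.67 (SE 0.28, edgeR adjusted p = 0.143) for 92600001 with the proximal bin, where the unadjusted p was 0.0205. DESeq2 called 0 of the 2 as well, though it gave an adjusted p (0.695) for the neighbouring bins only. Between day 3 and day 6, 0 of 1 passed, beside 5.33% of 2571: the log2 difference (day 6 minus day 3) at 92640001 with 92680001 was -0.71 (SE 0.25, edgeR adjusted p = 0.0915). It passed with contact totals (edgeR adjusted p = 0.000137), without day 3 replicate 3 (0.0298) and without day 6 replicate 2 (0.0057). With contact totals the median of all pairs fell by 0.58 on the log2 scale between day 3 and day 6. The 2 KLF4 comparisons share the day 3 libraries. No member pair was in both TKO lists, so none could be tested there.

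The pairs of the distal Runx1 window came mostly from Hi-C. It held 27 pairs in MEF Hi-C, reached by 854 promoter windows (3.40%), 12 in ES Hi-C, reached by 10832 (43.1%), and 4 in MEF H3K27ac, and 0 in the other 6 lists. The MEF H3K27ac pairs left the distal start bin for 92780001 (3.97 and 3.32 CPM), 92790001 (4.63 and 4.27), 92830001 (5.95 and 6.87) and 92840001 (5.62 and 6.63), with ratios of 1.68 to 2.51. They were weaker than the strongest proximal pairs and stayed within 40 kb.

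In both Hi-C lists the pairs of the distal window gathered on its bin 92830001, upstream of the start, with 13 of the 27 pairs in MEF and 10 of the 12 in ES. The strongest in each was 92830001 with 92840001, at signals of 70.0 and 64.2 in MEF and 55.0 and 64.5 in ES. Next came 92830001 with 92850001, at 57.9 and 61.6 in MEF and 56.2 and 53.0 in ES, so that MEF and ES overlapped at the first pair and not at the second. In MEF the third was the distal bin with 92830001 (59.2 and 53.7), and in ES it was 92830001 with 92870001 (34.2 and 35.3). The widest spanned 150 kb in MEF (the distal bin with 92970001, 17.3 ± 2.21, SD, n = 2) and 100 kb in ES (92830001 with 92930001, 16.8 ± 1.26). The authors' FDR was under 0.1 for 3 of the 27 MEF pairs, beside 12.6% of the whole list, with 0.0664 for 92790001 with 92810001, 0.0459 for 92830001 with 92840001 and 0.00195 for 92830001 with 92850001.

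Both Hi-C lists held 9 of these pairs, 8 of them on the bin 92830001, and these were the only member pairs in both. edgeR called 0 of the 9, beside 0.0322% of 124204 shared pairs, with log2 differences (ES minus MEF) of -0.56 to 0.27, SE of 0.22 to 0.30 and adjusted p of 0.813 to 0.999. At an unadjusted p under 0.05 edgeR had 7544 of the 124204, and DESeq2 called 0.

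Zeb1 (chr18:5591327-5775468) had 1 pair in MEF H3K27ac and 1 in TKO at 24 h, and 0 in the other 7 lists. In MEF its bin met 5160001, 430 kb away, where Gm26682 lies, with 3.59 and 3.32 CPM on 10 and 13 counts. The ratio of 17.4 ± 0.825 (SD, n = 2) stood at the percentile of 99.3 on its chromosome. The window is the bin that the TKO lists name for Zeb1, so a pair in at least 1 TKO list was fixed by that choice. In TKO at 24 h the bin met 5620001, 30 kb away inside Zeb1, with 3.65, 3.26 and 5.11 CPM and a ratio of 1.70 ± 0.352 (SD, n = 2). This was the 1 listing of the 141 that crossed a boundary of the MEF domain list, since both domain lists end a domain at 5600000. In the authors' annotation the Zeb1 bin carried H3K27ac peaks at 0 h and at 24 h, and the bin at 5620001 none. With 1 more bin on either side, Zeb1 had 2 pairs in MEF H3K27ac, 3 in MEF Hi-C and 1 in ES Hi-C.

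Members of the MEF H3K27ac list spanned more than the list as a whole, a median of 70 kb against 20 kb, and those of day 3 KLF4 40 against 20 kb. In MEF H3K27ac, 38 of the 47 had a ratio at or above the median of their chromosome and 16 of the 47 a CPM at or above it. At day 3 these were 19 and 10 of 25, in MEF Hi-C 31 and 15 of 41, and in ES Hi-C 9 and 9 of 21. A list that admits only pairs above a fixed CPM holds, at great distances, only pairs of high ratio, so the lowest ratio it can hold rises with span. The part of this filter in the ratios seen was not tested.

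**Figure D5:**
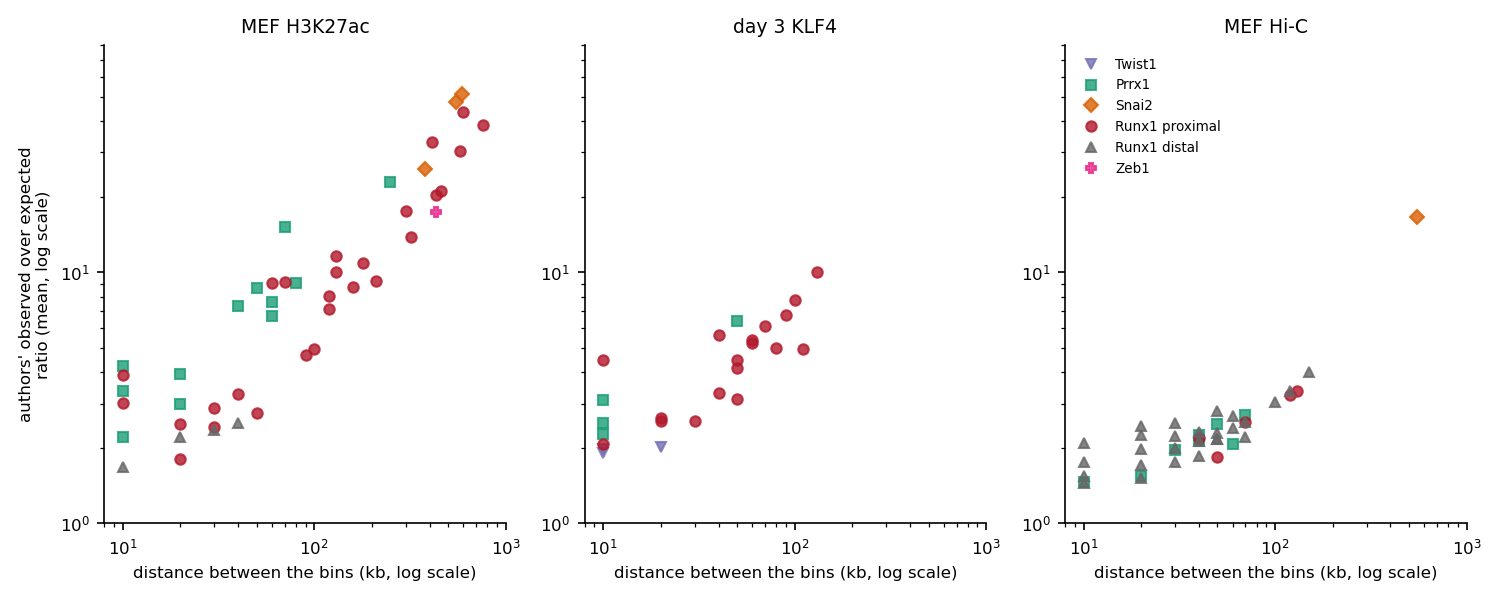
Authors' observed over expected ratio (vertical axis, log scale, mean of replicates) against the distance between the bins (kb, log scale) for every member pair of MEF H3K27ac, day 3 KLF4 and MEF Hi-C, with windows by symbol. Snai2 pairs reach ratios of 47.9 and 51.1 at 550 and 590 kb in MEF H3K27ac, whereas Twist1 pairs stay at 1.91 to 2.02 at day 3.

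Exact sharing of member pairs was low between MEF and ES. Of the 47 pairs of MEF H3K27ac, 2 were also in ES H3K27ac, 4.26% (exact 95% interval 0.520% to 14.5%), beside 29.4% of the whole list, while both ES pairs were in MEF, beside 23.7%. In MEF Hi-C, 9 of 41 were in ES Hi-C, 22.0% (10.6% to 37.6%) beside 55.9%. In the other direction 9 of 21 ES Hi-C pairs were in MEF, 42.9% (21.8% to 66.0%) beside 40%. All 9 were distal Runx1 pairs, so none of the MEF Hi-C pairs of Prrx1, Snai2 and proximal Runx1 was shared (0 pairs). These intervals cover counting error only, since ligation products were amplified by PCR and pairs of 1 window share a bin.

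Day 3 KLF4 pairs were looked up in the lists before and after it. Of the 25 day 3 pairs, 15 were in MEF H3K27ac, 60% (38.7% to 78.9%) beside 46% of the whole list. Pairs of 1 window share bins, so the interval cannot judge that difference. At equal list lengths the shares were 32% and 25.2%. Of the 25, 2 were in ES KLF4, 8% (0.984% to 26.0%) beside 31.1%, and 1 was at day 6, 4% (0.101% to 20.4%) beside 10.9%. The 15 were all 4 of Prrx1 and 11 of the 18 of proximal Runx1, with 0 of the 3 of Twist1. As a share of the MEF H3K27ac pairs they were 31.9% (19.1% to 47.1%) beside 17.9%. Both ES KLF4 pairs were also at day 3, beside 30%. Of the MEF H3K27ac pairs 11 of 47 were in MEF Hi-C, 23.4% (12.3% to 38.0%) beside 47.1%. The 2 ES H3K27ac pairs were not in TKO at 0 h, beside 77.6%, and the pairs of TKO at 0 h and 24 h were not in each other's list, beside 72.6% and 80.4%, with 1 or 2 pairs behind each of these counts.

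Other mesenchymal regulators were taken from a list of 29, of which 21 had a RefSeq promoter window. For genes with several promoters, such as Tcf12 with 3, pairs at all their windows were pooled. The shares over all promoter windows take each window alone, so the 2 are not fully alike. Of the 21, 9 had more pairs in MEF than in ES H3K27ac, 3 had fewer, 2 had equal numbers and 7 had none in either, against 19.8% with more and 33.4% with fewer over all promoter windows. Smad3, which carries TGF-beta signals, had 15 pairs in MEF and 4 in ES, Tcf12, a partner of Twist proteins, 9 and 2, Id3, an inhibitor of such partners, 7 and 0, Twist2 5 and 0 and Snai1 7 and 1. The other genes with more in MEF differed by little: Prrx2 had 4 and 2, Msx2 2 and 1, Runx3 1 and 0 and Tbx18 1 and 0. Fewer in MEF were found for Tcf3 (4 and 14), Id2 (3 and 8) and Ctbp2, a corepressor of ZEB proteins (8 and 29). The 13 genes of the list with bins named in the TKO lists gave another order, 5 with more pairs in MEF and 6 with more in ES H3K27ac, with medians of 2 and 2. Such bins enter only through a pair listed in TKO, which are V6.5 cells, so they do not compare MEF and ES evenly. Of those without a promoter window, Tcf4 had 1 and 5 pairs at its named bins, Tead1 2 and 6, Snai3 1 and 2 and Id1 11 and 5. Between day 3 and ES KLF4, 7 of the 21 had more at day 3 and 7 more in ES, beside 14.9% and 24.3% of all windows. In Hi-C 7 had more in MEF and 11 more in ES, beside 20.0% and 57.7%. No test was run on such a list, and each count comes from 1 list per group.

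The cell labels were compared with marker windows in the same way. Of 6 fibroblast markers with a window, 5 had more pairs in MEF than in ES H3K27ac and 1 had none in either, out of a list of 10, with 16 and 0 for the collagen gene Col1a2 and 10 and 0 for Vim, which encodes vimentin. The other 4 had bins named in the TKO lists, which enter only through a pair listed in those V6.5 cells. At these bins Thy1 had 9 pairs in MEF and 0 in ES, Col1a1 8 and 0, Pdgfrb 7 and 1, and Fn1 1 and 5. All 8 pluripotency genes with a window had more in ES, among them Nanog with 45 against 2 and Sox2 with 23 against 0. Of 4 endothelial and blood genes, where Runx1 is also active, 3 had none in either list and Gata1 had 1 in MEF and 15 in ES.

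Genes with a similar spread of pairs over the 9 lists were sought by correlation, as a description in which all genes share the same lists. By shares of each list, over 12694 genes named in the TKO lists, Zeb1 was matched by Gm10125, which has the same bin (r = 1), and then by Glis3 (r = 0.995), Borcs7 (0.987), Greb1l (0.987) and Casp9 (0.986). List length dominates that measure. On log2 of the number of pairs plus 1 over RefSeq windows, a measure chosen after the data had been seen, Prrx1 was closest to Rasgrp3 (r = 0.999), Stambpl1 (0.993), Tas2r126 (0.991), 5430403N17Rik (0.989) and Gm51670 (0.986). The proximal Runx1 window was closest to App (0.948), 1700016K05Rik (0.926), Anxa2 (0.918), Emx2 (0.910) and 9130008F23Rik (0.905). For the distal window 5 genes tied at an r of 1.00.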

How the data were processed

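Each interaction list pairs 10 kb bins and, per the file headers, gives for every library a contact count, a CPM and a distance-normalised ratio, with 1 p-value and 1 FDR per pair; the test behind them is not given in the sources used here. The submitters' processing notes name Bowtie2 2.2.3 and mm10. The deposited counts are whole contacts. The deposited HiChIP CPM values are counts scaled by the contacts of the same chromosome (the CPM header). The deposited Hi-C column of that name is a signal scaled by constants of unstated origin, so the depth of Hi-C is known only as 5.58 to 10.0 M listed counts per library. The authors' ratio is observed over expected contacts for the distance. As the values show, the authors kept p-values under 0.1 and CPM of 3 or more in HiChIP (not in every KLF4 library of replicate 3 or 4), and p-values under 0.01 and a signal of 15 or more in Hi-C.

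Windows were read from all 9 lists around the bins starting at chr12:33950001 (Twist1), chr1:163310001 (Prrx1), chr16:14700001 (Snai2) and chr16:92690001 and chr16:92820001 (proximal and distal Runx1). Libraries of a group with a chi-square p-value of 0.05 or more, where another pair of the group differed, were joined, a step that averages their CPM and sums their counts. Pairs in both lists were tested on counts with edgeR 4.0.16 (R 4.3.3), with filterByExpr, TMM on contact totals (count sums in Hi-C) fitting each comparison by itself, and were called at an adjusted p-value under 0.05. DESeq2 1.42.0 was an alternative. The same fit was also run on simulated counts drawn around the real means, and its outcome is not given here. Python 3.11.15, numpy 2.4.6, pandas 2.3.3, scipy 1.17.1 and matplotlib 3.10.9 did the rest.

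The members, gene lists and rules were chosen with earlier results of these data known. Pairs named are all pairs of a window in a list with 5 or fewer, otherwise the 3 strongest and the widest, and every pair called, listed in both MEF and ES H3K27ac, or in 3 or more lists; pairs with an FDR under 0.1 were named after their values were seen. Partner genes and promoter windows (the bin of a gene start and 1 bin on either side) come from RefSeq GRCm38.p6, since the TKO lists name few of these bins. Alternatives were other scaling, filters, replicates, windows and list cutoffs.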

Additional observations from a re-analysis of the deposited data

How the results depend on the processing

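The count of called member pairs between MEF and ES H3K27ac was 2, and 1 with contact totals, with DESeq2 and with the named bin only, and 1 to 2 leaving out single libraries. Between day 3 and day 6 KLF4 it was 0, and 1 with contact totals, and 0 to 1 leaving out single libraries. Contact totals moved the median log2 difference of all pairs from -0.04 to 0.21 for MEF and ES and from 0.02 to -0.58 for day 3 and day 6. They moved the split of all calls from 3152 higher and 2569 lower in ES to 4831 and 1426, and from 34 higher and 103 lower at day 6 to 6 and 1584. DESeq2 called 2396 of all MEF and ES pairs where edgeR called 5721, 64 against 532 for day 3 and ES, 39 against 137 for day 3 and day 6 and 0 against 40 in Hi-C. It gave no adjusted p to 92640001 with 92680001 in MEF and ES H3K27ac or in day 3 and day 6. The same held for 92600001 with the proximal bin in day 3 and ES. The replicate numbers did not pair the libraries (correlations of -0.06 to 0.03), and with a replicate block the called member pairs were 2 between MEF and ES H3K27ac and 0 in the other 4 comparisons.

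Listed pairs at the windows depended on cutoffs. Kept only at or above the chromosome's median CPM or signal, they were 16 in MEF H3K27ac, 10 at day 3, 15 in MEF Hi-C, 9 in ES Hi-C, 1 each in ES H3K27ac and ES KLF4 and 0 in both TKO lists and at day 6. At the authors' FDR under 0.1 they were 4 in MEF H3K27ac (1.84% of the whole list), 4 in MEF Hi-C (12.6%) and 0 in the other 7 lists (0.173% to 8.8%). At a CPM of 3 over the whole library they were 0 in all 7 HiChIP lists, a cutoff that kept 2 to 71 pairs of any whole list. With the named bin only they were 16 at day 3, 14 in MEF Hi-C, 7 in ES Hi-C, 1 in ES H3K27ac and 0 in TKO at 0 h and at day 6. With 2 bins on either side MEF Hi-C had 65.

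With anchors allowed 1 bin away, shares became 24% for day 3 in day 6 (25.1% over the whole list), 68.3% for MEF Hi-C in ES Hi-C (84.0%), 84% for day 3 KLF4 in MEF H3K27ac (67.2%) and 51.1% for MEF H3K27ac in MEF Hi-C (81.1%). With lists of equal length they were 25% for day 3 in day 6 (1 of 4 pairs, 30.2%), 32% for day 3 KLF4 in MEF H3K27ac (25.2%) and 4.26% for MEF H3K27ac in MEF Hi-C (23.2%). TKO at 0 h had no window pair left at equal length. Of the alternatives to these counts and shares, 68 were labelled as leaving them the same and 48 as moving them. The 68 do not measure stability, because some could not have moved. No member pair could be tested between TKO at 0 h and 24 h, or between day 3 and day 6 with the named bin only. Those counts could only be 0. Some shares labelled the same rested on 1 or 2 pairs. That of day 3 KLF4 in ES KLF4 was labelled the same although it went from 8% to 24% with anchors 1 bin away. The causes of the moves were not tested beyond the smaller lists and windows themselves. Member pairs rest on 6 to 114 contacts per HiChIP library, which limits every single pair.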

Other observations

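Epithelial genes, the targets that SNAI and ZEB repressors are known for, were counted in the same way. Of 13 with a RefSeq promoter window from a list of 18, 1 had more pairs in MEF than in ES H3K27ac, 10 had fewer, 1 had equal numbers and 1 had none in either, against 19.8% with more and 33.4% with fewer over all promoter windows. The tight junction genes Tjp3 and Cldn6 had 2 and 7 pairs in MEF and 20 and 22 in ES, the polarity gene Crb3 had 3 and 17, and the adhesion gene Epcam 2 and 9. Krt8, a keratin gene, was the 1 with more in MEF, 14 against 10. With KLF4, 10 of the 13 had more pairs in ES than at day 3, 1 had more at day 3 and 2 had none in either, beside 24.3% and 14.9% of all windows. In Hi-C 12 of the 13 had more in ES and 1 had more in MEF, where 57.7% of all windows had more in ES. Cdh1, Esrp2 and Ovol1 had no window but bins named in the TKO lists, which enter only through pairs of those V6.5 cells. There they had 2, 2 and 6 pairs in MEF H3K27ac and 11, 4 and 14 in ES H3K27ac. In Hi-C these bins had 9, 7 and 10 in MEF and 8, 6 and 12 in ES. These are counts in 1 list per group, with no test.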
